A study of Mus musculus with 14 samples.

Results

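The regions described here were ChIP-seq peaks near the centromeric ends of the 19 mouse autosomes. A peak was taken when it lay on chromosomes 1 to 19 and ended below 10 Mb in the mm9 assembly. This gave 25921 of the 557412 peaks in 12 lists, with 16206 of 350680 FLAG peaks and 9715 of 206732 H3K4me3 peaks. The rule used position alone and no measured value, though it was set with earlier results of these data known.

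The cells were neural stem cells of the E15.5 mouse embryo, cultured as hindbrain neurospheres. In 3 cultures (K27M-Tag) the full genotype was Nestin-cre; H3f3aLSL-K27M-Tag/+, in which a tagged H3.3 histone carries the K27M substitution on 1 allele of H3f3a. In the other 3 cultures (WT-Tag, the control) it was Nestin-cre; H3f3aLSL-WT-Tag/+, with the tagged wild-type histone. Both genotypes thus shared the Nestin-cre driver, which acts in neural progenitors and their descendants, and the FLAG signal of an untagged culture was not analysed here. Each culture gave 1 list with the FLAG antibody and 1 with an antibody against H3K4me3. The single male culture was WT-Tag replicate 3, the others being female. The labelled cell type was not checked against marker genes, because no gene annotation of mm9 was used.

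Mouse autosomes are telocentric: the centromere and its satellite repeats lie at one end, and the assembled sequence starts after a gap there. Pericentromeric satellite chromatin is packed as heterochromatin and cannot be read by unique alignment, so the peaks below lie in the assembled sequence beyond that gap. H3.3 is the histone variant put into chromatin outside of DNA replication, among other places at active promoters, at enhancers and in repeats near centromeres and telomeres. H3K4me3 is a mark of active and poised promoters. The question set by the design was how FLAG and H3K4me3 peaks differed between the genotypes, and here whether the ends next to the centromeres differed from the rest of the same chromosomes.

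The first peak of a chromosome started between 3.04 and 3.66 Mb. The windows therefore ran from 3 to 10 Mb, 7 Mb on each chromosome and 133 Mb in all, and the rest of the autosomes ran from 10 Mb to the last peak, 2281 Mb in all. The lists held 57589 to 88285 FLAG peaks in K27M-Tag against 32763 to 47293 in WT-Tag, and 35366 to 38720 and 31932 to 32504 H3K4me3 peaks. Read depth was not given, and a longer list gives more peaks everywhere, so each list was compared with itself. The expected number of peaks in a window was 7 Mb times the peak density of the rest of that chromosome, summed over the chromosomes.

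Peaks of both antibodies were sparser in the centromeric windows than in the rest of the same chromosomes. In K27M-Tag the FLAG lists held 3510, 2601 and 4011 peaks in the windows, and in WT-Tag 1566, 2255 and 2263. FLAG density was 25.4 ± 5.37 peaks per Mb in the windows against 30.9 ± 6.43 in the rest in K27M-Tag (SD, n = 3), and 15.2 ± 3.01 against 17.5 ± 3.41 in WT-Tag. The observed over expected number was 0.809, 0.811 and 0.819 in the K27M-Tag cultures and 0.863, 0.862 and 0.874 in the WT-Tag cultures. All 6 cultures lay below 1, and the K27M-Tag cultures lay below the WT-Tag cultures without overlap.

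The H3K4me3 lists held 1674, 1663 and 1815 peaks in the windows in K27M-Tag, against 1508, 1518 and 1537 in WT-Tag. H3K4me3 density was 12.9 ± 0.637 peaks per Mb in the windows against 14.9 ± 0.728 in the rest in K27M-Tag, and 11.4 ± 0.111 against 13.0 ± 0.130 in WT-Tag. Observed over expected was 0.854, 0.866 and 0.862 in K27M-Tag against 0.873, 0.862 and 0.884 in WT-Tag, again below 1 in all 6 cultures but with overlapping genotypes. The mean log2 of observed over expected was -0.25 ± 0.05 for FLAG and -0.21 ± 0.02 for H3K4me3 (SD, n = 6). For each antibody the two-sided exact sign-flip test over cultures gave p = 0.031, the smallest that 6 cultures allow. It measures how far the cultures agree and not the spread between chromosomes. Of the 19 windows, 3 lay above 1 for FLAG and 5 for H3K4me3. The Benjamini-Hochberg value over the 16 exact tests made here was 0.133 for both antibodies. No exact test in this set could pass 0.05 after that adjustment. The smallest p-values these exact tests allow are 0.031 over 6 cultures and 0.1 for 3 against 3. The adjusted values therefore decide nothing at that threshold.

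The deficit depended on what the windows were compared with. Against the next stretch alone, 10 to 20 Mb, the windows were denser: observed over expected was 1.38 ± 0.0337 in K27M-Tag against 1.57 ± 0.0822 in WT-Tag for FLAG, and 1.40 ± 0.0168 and 1.41 ± 0.0169 for H3K4me3, higher in all 6 cultures (log2 0.56 and 0.49, exact p = 0.031 for each). Without chromosome 19 the deficit was deeper, with FLAG at 0.675 ± 0.0153 in K27M-Tag against 0.663 ± 0.0185 in WT-Tag, and H3K4me3 at 0.759 ± 0.00687 and 0.755 ± 0.0123. With only the 50% of peaks of highest score, H3K4me3 stood nearer to 1, at 0.939 ± 0.0249 and 0.970 ± 0.0204 (log2 -0.07, exact p = 0.031), and FLAG at 0.812 ± 0.00795 and 0.852 ± 0.0189. Below 5 Mb alone, H3K4me3 was close to the rest, at 0.991 ± 0.0166 and 1.06 ± 0.0203, while FLAG was at 0.774 ± 0.0134 and 0.886 ± 0.0185.

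**Figure D1:**
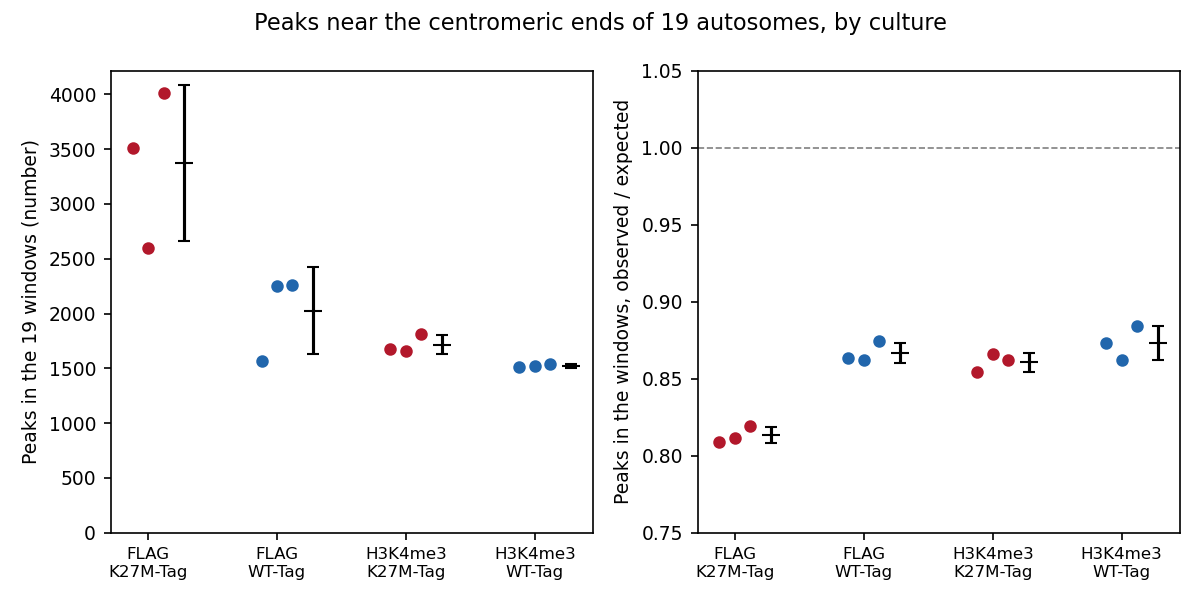
Left, the number of peaks in the 19 windows, and right, the observed over expected number, for each culture (points) with the mean and SD of 3 cultures beside them. The FLAG counts of K27M-Tag lie above those of WT-Tag, and all 12 lists lie below 1 on the right, with FLAG in K27M-Tag lowest at 0.809 to 0.819.

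The number of peaks in the windows was higher in K27M-Tag for both antibodies, as it was in the rest. For FLAG the mean was 3374 ± 715 in K27M-Tag against 2028 ± 400 in WT-Tag, a ratio of 1.66 in the windows against 1.77 in the rest. For H3K4me3 it was 1717 ± 84.8 and 1521 ± 14.7, a ratio of 1.13 against 1.14 in the rest. The ranges did not overlap for either antibody, and the two-sided exact permutation test of 3 cultures against 3 gave p = 0.1 for each, the smallest it allows (adjusted 0.133). With lists of equal length, these differences turned round, to log2 -0.09 for FLAG and -0.01 for H3K4me3. The share of window peaks whose local background exceeded the list's most common one by more than 1.5 times was 7.79% ± 2.16 in K27M-Tag against 16.3% ± 4.05 in WT-Tag for FLAG, and 10.6% ± 1.68 and 34.0% ± 0.248 for H3K4me3. These shares were 7.37% and 16.3%, and 10.0% and 33.9%, in the rest, and their part in the genotype differences was not tested.

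The genotype ratio of FLAG peaks was lower in the windows than in the rest of the same chromosomes by a factor of 0.938 (log2 -0.09, two-sided exact permutation p = 0.1, adjusted 0.133, ranges apart). For covered length the factor was 0.919 (log2 -0.12, exact p = 0.1, adjusted 0.133, ranges apart). Both rested on chromosome 19: without it the log2 difference was 0.02 for number (exact p = 0.4) and 0.02 for covered length (exact p = 0.6), with the opposite sign. For H3K4me3 the factor was 0.986 for number and 0.985 for covered length, with overlapping genotypes (exact p = 0.2 for each).

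Within the windows, peaks of both antibodies were unevenly spread. In 1 Mb steps pooled over the chromosomes, FLAG density was 19.4 ± 4.87 peaks per Mb in K27M-Tag at 3 to 4 Mb and highest at 5 to 6 Mb, with 36.6 ± 7.11 in K27M-Tag against 22.2 ± 3.48 in WT-Tag. It was lowest in K27M-Tag at 7 to 8 Mb, with 16.9 ± 3.37, and lowest in WT-Tag at 9 to 10 Mb, with 9.61 ± 2.49. The step at 5 to 6 Mb lay above the density beyond 10 Mb in all 6 FLAG lists, by 1.19 times in K27M-Tag and 1.28 times in WT-Tag on average. H3K4me3 was densest at 4 to 5 Mb, with 16.7 ± 0.549 and 16.2 ± 0.185 peaks per Mb, and sparsest at 7 to 8 Mb, with 8.37 ± 0.229 and 7.05 ± 0.0526.

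The ratio of K27M-Tag to WT-Tag FLAG density was 1.53 at 3 to 4 Mb, 1.55 at 4 to 5 Mb and 1.65 at 5 to 6 Mb. It was 2.10 at 9 to 10 Mb and 1.502 at 10 to 11 Mb, so that neighbouring steps differed as much as the ends of the window. Beyond the windows both antibodies stayed low to 20 Mb. For FLAG in K27M-Tag, the steps from 10 to 15 Mb lay between 0.418 and 0.789 of the density beyond 10 Mb. Those from 15 to 20 Mb lay between 0.433 and 0.720. For H3K4me3 in the same cultures these ranges were 0.533 to 0.769 and 0.465 to 0.795. No list held a FLAG peak in 16 of the 133 steps, 4 of them on chromosome 14, nor an H3K4me3 peak in 5 of 133. Just inside the 10 Mb limit, in the last 0.5 Mb, there were 150 to 211 FLAG peaks in the K27M-Tag lists and 71 to 119 in the WT-Tag lists. In the first 0.5 Mb outside it there were 165 to 256 and 120 to 196. For H3K4me3 the numbers were 83 to 93 and 72 to 82 inside, and 85 to 102 and 92 to 94 outside.

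**Figure D2:**
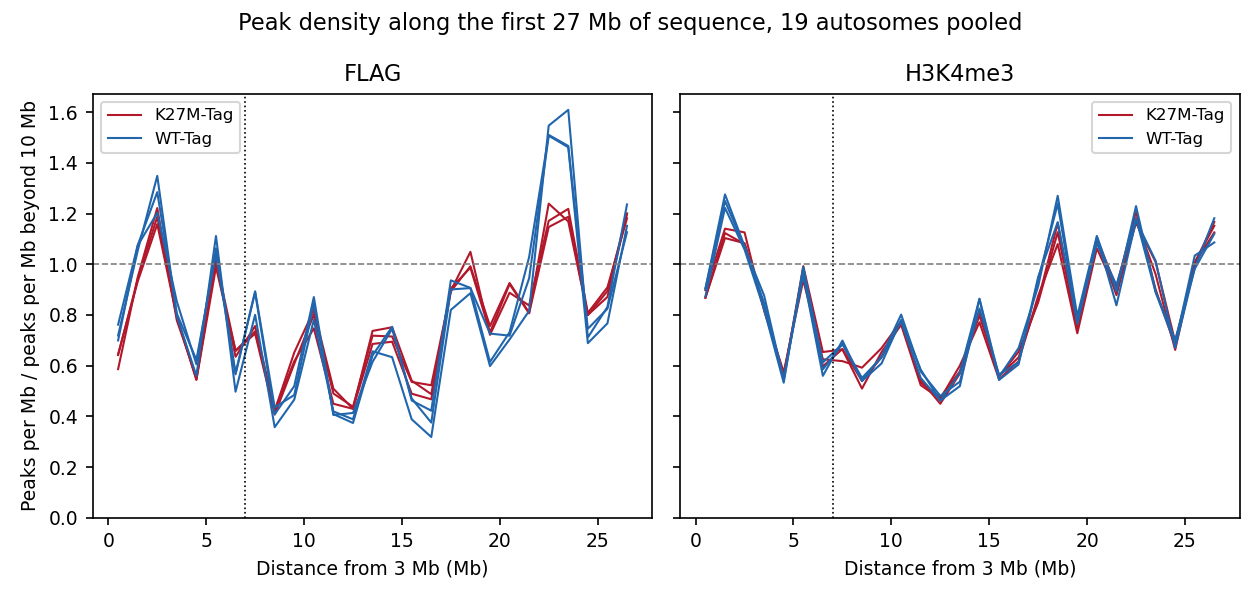
Peak density in 1 Mb steps over the first 27 Mb of assembled sequence, divided by the density beyond 10 Mb in the same list, with 1 line per culture and the window limit as a dotted line at a distance of 7 Mb from the 3 Mb start. In both panels the lines rise above 1 within the first 3 Mb and run below 1 from 7 to 17 Mb after the start. FLAG in WT-Tag is highest at 22 to 24 Mb after it.

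Chromosomes differed far more from each other than cultures did. For FLAG, 16 of 19 windows had a mean observed over expected below 1, with a median of 0.653, and for H3K4me3 14 of 19 did, with a median of 0.729. Over the other 316 stretches of 7 Mb on the same chromosomes the median was 0.877 for FLAG and 0.933 for H3K4me3. The centromeric window ranked first among the stretches of its chromosome on 1 chromosome and in the upper 50% on 3 chromosomes for FLAG, and on 1 and 6 for H3K4me3.

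Chromosome 19 was the exception on the high side. It held 23.8% of the FLAG peaks and 17.8% of the H3K4me3 peaks of all windows, and its window ranked first of 8 stretches with both antibodies. FLAG peaks there numbered 795, 589 and 817 in K27M-Tag against 455, 610 and 587 in WT-Tag, so that the ranges overlapped. Relative to the rest of chromosome 19, the observed over expected number was 3.14, 3.09 and 2.88 in K27M-Tag against 4.89, 4.69 and 4.40 in WT-Tag, with WT-Tag higher in every culture. The ratio of K27M-Tag to WT-Tag was 1.33 in this window and 2.04 in the rest of the chromosome.

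On chromosome 19, FLAG peaks on an H3K4me3 peak of the same culture numbered 301 on average in K27M-Tag against 114 in WT-Tag, a ratio of 2.63. Those off H3K4me3 numbered 433 and 436, a ratio of 0.992. H3K4me3 peaks in this window numbered 288, 284 and 306 in K27M-Tag against 297, 272 and 278 in WT-Tag, with overlapping ranges, and observed over expected was 2.46 ± 0.0336 and 2.76 ± 0.125. The densest 1 Mb step of all windows was at 5 to 6 Mb of chromosome 19 with both antibodies. It held 212, 169 and 227 FLAG peaks in K27M-Tag against 121, 155 and 152 in WT-Tag, and 76, 79 and 77 against 73, 74 and 73 H3K4me3 peaks. K27M-Tag was thus higher in every culture with FLAG, and its H3K4me3 range lay above that of WT-Tag by 2 peaks.

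Ordered by observed over expected, that is relative to the rest of their own chromosome, the next FLAG windows were those of chromosome 17, at 1.49 ± 0.0353 in K27M-Tag against 1.34 ± 0.0884 in WT-Tag, and chromosome 11, at 1.11 ± 0.0262 and 1.22 ± 0.0563. The lowest on this measure were those of chromosome 9, chromosome 8 and chromosome 14, with means over the 6 lists of 0.121, 0.229 and 0.269. Chromosome 9 held 37, 25 and 61 FLAG peaks in K27M-Tag against 5, 17 and 19 in WT-Tag. On the same measure the highest H3K4me3 windows after chromosome 19 were those of chromosomes 17 and 16, at 1.07 and 1.06, and the lowest those of chromosomes 9, 8 and 13, at 0.278, 0.481 and 0.514. Chromosomes 9 and 8 were thus lowest in observed over expected with both antibodies. In peaks per Mb the order differed: after chromosome 19 (91.7 FLAG and 41.1 H3K4me3 peaks per Mb over the 6 lists) came chromosome 11 (49.4 and 22.2) and chromosome 17 (38.1 and 16.9). The lowest were chromosomes 9 and 14 for FLAG (3.90 and 4.98) and chromosomes 9 and 13 for H3K4me3 (4.33 and 6.69).

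Across the 19 chromosomes the FLAG and H3K4me3 values had a Pearson r of 0.930 and a Spearman rho of 0.702, and without chromosome 19 these were 0.644 and 0.649. This is a description over chromosomes of the same 6 cultures, which share their libraries. As a ratio of FLAG to H3K4me3 observed over expected, the lowest chromosome was 14, at 0.272, where FLAG stood at 0.289 ± 0.00515 in K27M-Tag against 0.249 ± 0.0247 in WT-Tag while H3K4me3 stood at 1.00 ± 0.00479 and 0.977 ± 0.0979. On chromosome 6, chosen after its values were seen, the FLAG window held 130, 90 and 150 peaks in K27M-Tag against 21, 30 and 38 in WT-Tag, a ratio of 4.16 against 1.80 in the rest of the chromosome. Its observed over expected number was 0.607 ± 0.0302 and 0.262 ± 0.0392.

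The genotype ranges of observed over expected were apart on 11 chromosomes for FLAG. K27M-Tag was higher on 5 of all 19 chromosomes, where the background was 130 of the other 316 stretches of 7 Mb, or 41.1%. WT-Tag was higher on 6 of 19, where the background was 68 of 316, or 21.5%. For H3K4me3, K27M-Tag was higher on 5 of 19 chromosomes (background 19.3%) and WT-Tag on 3 of 19 (background 15.8%), and 11 overlapped. The chromosomes on which FLAG was relatively higher in K27M-Tag were 2, 6, 9, 14 and 17, and those on which it was relatively higher in WT-Tag were 7, 11, 12, 16, 18 and 19.

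**Figure D3:**
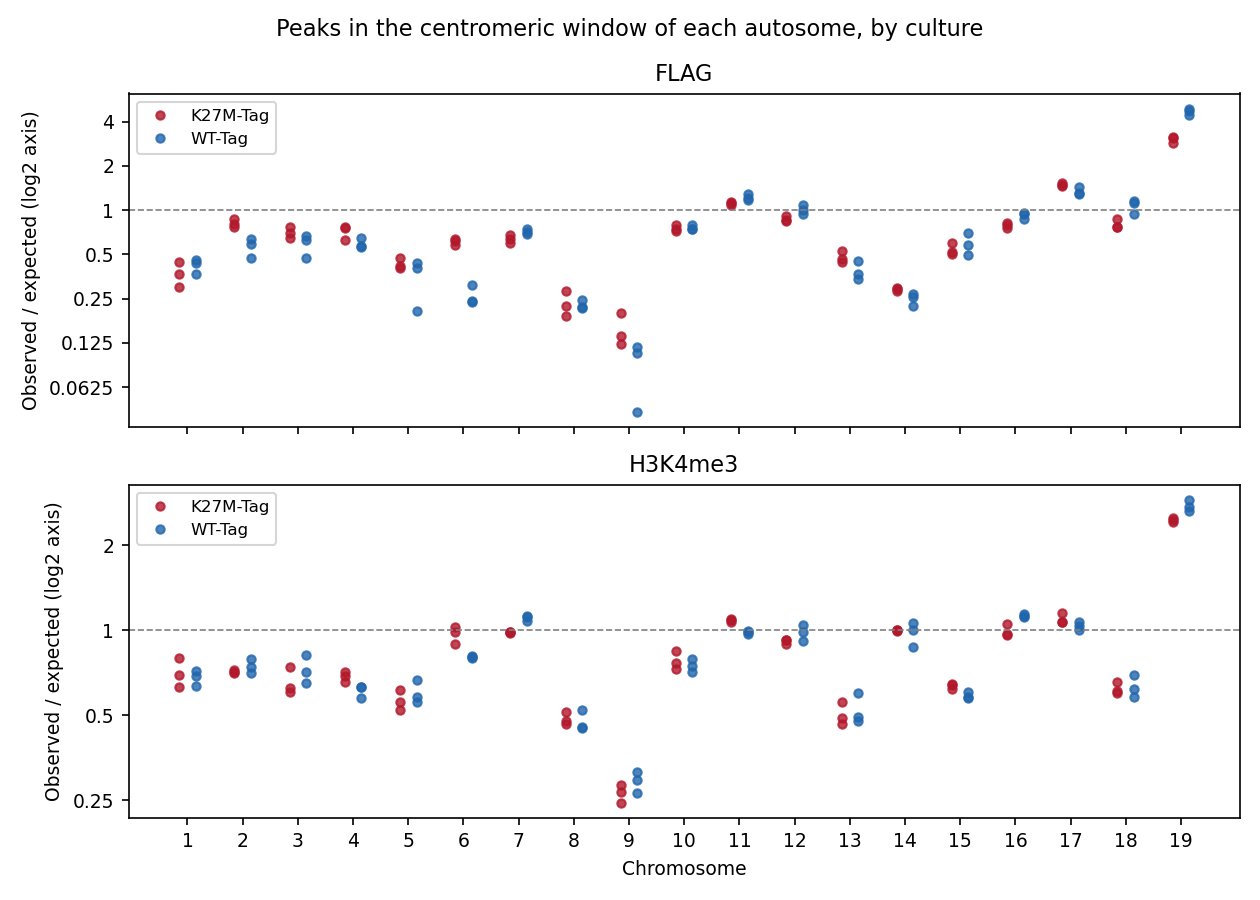
Observed over expected number of peaks in the centromeric window of each autosome on a log2 axis, with 1 point per culture. Chromosome 19 lies highest with both antibodies, at 2.88 to 4.89 for FLAG, and chromosome 9 lowest.

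H3K4me3 peaks in the windows were wider than in the rest, and FLAG peaks were of like width. The median H3K4me3 width was 951, 958 and 821 bp in the windows in K27M-Tag, against 830, 783 and 741 bp in the rest, and 879, 1030.5 and 986 bp in WT-Tag, against 786, 836 and 820 bp. The difference was 138 ± 47.0 bp on average and had the same sign in 6 of 6 cultures (two-sided exact sign-flip p = 0.031, adjusted 0.133). With only the 50% of peaks of highest score it was 10.6 bp (exact p = 0.469). Below 5 Mb alone it was 331 bp, and without chromosome 19 it was 76.7 bp, with exact p = 0.031 for each. The median score percentile within a list, by the authors' own score, was 54.5 in the windows and 49.4 in the rest in K27M-Tag. In WT-Tag these percentiles were 54.7 and 49.6.

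Peaks of at least 2 kb made up 21.3% ± 0.936 of the H3K4me3 peaks in the windows and 19.5% ± 1.01 in the rest in K27M-Tag. In WT-Tag these shares were 19.9% ± 1.57 and 18.2% ± 1.28. The median FLAG width was 384 ± 8 bp in the windows in K27M-Tag against 292.5 ± 21.7 bp in WT-Tag. It differed from the rest by -1.92 ± 4.05 bp (exact p = 0.3125), lower in 3 of 6 cultures.

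FLAG peaks lay on H3K4me3 peaks about as often in the windows as in the rest, and more often in K27M-Tag than in WT-Tag. The share of FLAG window peaks that overlapped an H3K4me3 peak of the same culture by at least 1 bp was 35.7%, 37.3% and 35.4% in K27M-Tag against 19.60%, 19.02% and 18.47% in WT-Tag. In the rest it was 35.2% ± 1.13 and 18.8% ± 1.09. The genotypes were apart by 17.1 percentage points in the windows (exact permutation p = 0.1, adjusted 0.133). With lists of equal length they were apart by 22.5 points. Local background was raised at 34.0% of H3K4me3 window peaks in WT-Tag against 10.6% in K27M-Tag. Its part in this genotype difference, and in those of the genotype-specific regions below, was not tested. The windows exceeded the rest by 0.622 ± 0.527 points, in 5 of 6 cultures (exact sign-flip p = 0.09375, adjusted 0.133).

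Without chromosome 19 that excess turned to -0.349 points. In number, FLAG window peaks on H3K4me3 were 1214 ± 228 in K27M-Tag against 385 ± 67.5 in WT-Tag, a ratio of 3.16 against 3.31 in the rest. Those off H3K4me3 were 2160 ± 487 and 1643 ± 333, a ratio of 1.31 against 1.41, with overlapping ranges (exact permutation p = 0.3).

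Seen from H3K4me3, the share of window peaks that met a FLAG peak was 54.8%, 44.8% and 58.6% in K27M-Tag against 18.4%, 24.8% and 23.7% in WT-Tag, which is 30.4 points apart (exact permutation p = 0.1, adjusted 0.133). With lists of equal length this gap was smaller, at 17.2 points (exact permutation p = 0.1). The windows differed from the rest by -2.27 ± 0.620 points in K27M-Tag, in 3 of 3 cultures, and the difference in WT-Tag was -0.181 ± 0.272 points. Over both genotypes it was -1.23 ± 1.22 points, in 5 of 6 cultures (exact sign-flip p = 0.0625, adjusted 0.133), and its size depended on the setting: -0.157 points with windows from 4 Mb, -6.46 points below 5 Mb, -3.95 points without chromosome 19, and 2.52 points, of the opposite sign, against 10 to 20 Mb. The test of the genotype difference in it gave -2.09 points with ranges apart (exact permutation p = 0.1, adjusted 0.133). With the rest taken as 10 to 20 Mb this genotype difference was 0.713 points, of the opposite sign. In number, H3K4me3 window peaks without FLAG were 809 ± 94.7 in K27M-Tag against 1181 ± 45.7 in WT-Tag, and those with FLAG 909 ± 159 and 340 ± 54.6.

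**Figure D4:**
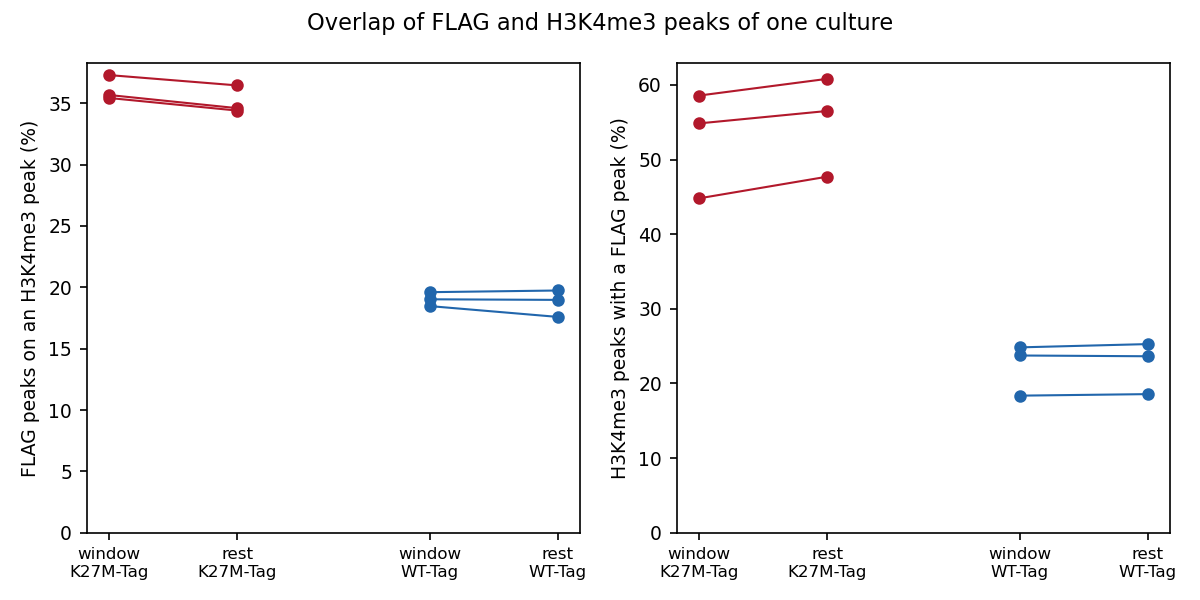
Share of FLAG peaks on an H3K4me3 peak (left) and of H3K4me3 peaks with a FLAG peak (right) in the windows and in the rest, with 1 line per culture. The genotypes are apart in both panels, while the lines from window to rest are nearly level, the steepest rising by 2.90 points from window to rest.

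Merging the 6 lists of an antibody where peaks share at least 1 bp gave 5495 FLAG regions and 1973 H3K4me3 regions in the windows. Of the FLAG regions 571 (10.4%) were in all 6 lists and 2424 (44.1%) in 1 list alone. Regions shared by the 3 K27M-Tag lists but absent from all WT-Tag lists numbered 486, or 8.84%, against a background of 9.89% over all FLAG regions. The reverse held for 29, or 0.528%, against a background of 0.585%. Of the H3K4me3 regions 1082 (54.8%) were in all 6 lists, 69 (3.50%, background 4.36%) in K27M-Tag only and 7 (0.355%, background 0.26%) in WT-Tag only. The genotype-specific shares thus lay near their backgrounds.

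The FLAG regions of the windows with the highest scores in all 6 lists were chr19:6449753-6455282, chr12:3886558-3889022 and chr19:3928735-3931504. The first was covered by FLAG peaks over 5113, 4413 and 4322 bp in K27M-Tag against 3524, 4438 and 3630 bp in WT-Tag, with overlapping ranges. Its lowest within-list score percentile was 99.2. The K27M-Tag-only FLAG regions with the highest scores were chr19:7558149-7559314, chr19:7062304-7063329, chr6:8898578-8899363, chr19:7069592-7070392 and chr11:5342892-5344044. All 5 had H3K4me3 peaks in the lists of all 6 cultures. Over all K27M-Tag-only FLAG regions of the windows, 292 of 486 (60.1%) overlapped an H3K4me3 region, where the share in the rest was 60.4%.

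The WT-Tag-only FLAG regions with the highest scores were chr5:4394189-4394652, chr16:4117186-4117588, chr19:5101692-5102255, chr19:3456894-3457487 and chr19:7299671-7300159. None of these 5 had an H3K4me3 peak in any list, and 2 of all 29 (6.90%) overlapped an H3K4me3 region, where the share in the rest was 2.90%. Neither difference between the windows and the rest was tested. The first was covered over 188, 286 and 449 bp in the WT-Tag lists.

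The strongest H3K4me3 regions in all 6 lists were chr5:4100517-4105415, chr16:4877400-4880538 and chr18:6237244-6242605, each with a lowest percentile of at least 99.2. At the first, H3K4me3 peaks covered 4207, 4563 and 3521 bp in K27M-Tag against 2734, 3887 and 2906 bp in WT-Tag. None of the 3 had a FLAG peak in any WT-Tag list, and FLAG covered 1145, 897 and 1843 bp of the second in K27M-Tag. Genotype-specific H3K4me3 regions were weaker. The highest-scoring K27M-Tag-only region, chr1:6724285-6725229, had a lowest percentile of 48.9, with H3K4me3 over 671, 934 and 839 bp and no FLAG peak. The highest-scoring WT-Tag-only region, chr3:9033244-9033803, had a lowest percentile of 21.3, with 301, 560 and 327 bp.

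Breadth, the length covered by peaks in a region, was tested with limma at regions in all 6 lists, over all 11980 FLAG and 22592 H3K4me3 regions of that kind, with Benjamini-Hochberg adjustment and a threshold of 0.05. Of the 571 FLAG regions in the windows, 223 became wider in K27M-Tag, where the background over all regions tested was 43.1%, and 2 narrower, where it was 0.618%. The 225 calls were 39.4% of the window regions, against a background of 43.8%. The median log2 difference was 0.70 in the windows and 0.81 over all regions. When each list was centred on its median, these medians were -0.21 and -0.10, and the calls were 49 wider (background 8.13%) and 71 narrower (background 11.5%). Without K27M-Tag replicate 1 the calls numbered 108 of 587 window regions, where 2867 of 12211 were called over all regions. Without K27M-Tag replicate 3 they numbered 111 of 573, where 2741 of 12126 were called over all regions.

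Window regions that overlapped an H3K4me3 region had a median log2 difference of 0.82, with 157 of 335 wider (46.9%), where all regions tested of that kind had 0.98 and a background of 54.9%. Those that did not overlap one had 0.44, with 66 of 236 wider (27.97%), where all regions tested of that kind had 0.56 and a background of 27.4%. The split by H3K4me3 was thus also present over all regions tested. Chromosome 19 held 161 of the 571 regions, of which 48 were wider, with a median of 0.57. Without chromosome 19 the median was 0.76, with 175 of 410 wider. The background over all regions tested was 43.1%. The share of wider regions lay below it on chromosome 19 and near it without chromosome 19, a difference that was not tested.

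The region with the largest change was chr2:4475935-4482698. FLAG peaks covered 6010, 5930 and 6316 bp of it in K27M-Tag against 389, 365 and 592 bp in WT-Tag (log2 3.80, SE 0.24, limma adjusted p = 0.000662). H3K4me3 peaks covered 4983, 4384 and 4092 bp of the same region in K27M-Tag against 3660, 3186 and 3140 bp in WT-Tag. K27M-Tag lay above WT-Tag in every culture with both antibodies, and in K27M-Tag FLAG reached over more of the region than H3K4me3.

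The next were chr11:4016376-4020396, chr19:7128806-7131122, chr2:6793850-6798723 and chr6:4689635-4691694, with log2 changes of 3.35, 3.20, 2.75 and 2.69. At the second of these, FLAG peaks covered 2218, 1989 and 1893 bp in K27M-Tag against 187, 207 and 277 bp in WT-Tag, while H3K4me3 peaks covered 500 ± 50.6 and 446 ± 6.66 bp. FLAG breadth there was thus apart by far more than H3K4me3 breadth. At the region on chromosome 6, H3K4me3 peaks covered 562, 832 and 457 bp in K27M-Tag against 230 bp in WT-Tag replicate 2 alone.

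FLAG became narrower in K27M-Tag at chr17:3336126-3337875 and chr18:5762167-5763624. At the first, it covered 352, 215 and 374 bp in K27M-Tag against 1154, 1482 and 1551 bp in WT-Tag (log2 -2.18, SE 0.34, limma adjusted p = 0.00234), and H3K4me3 was found in WT-Tag replicate 1 alone, over 244 bp. At the second it covered 540, 508 and 338 bp against 798, 794 and 964 bp (log2 -0.91, SE 0.32, limma adjusted p = 0.0479). An H3K4me3 region that also became narrower, chr17:3325962-3328370, lay 7755 bp from the first. H3K4me3 peaks covered 1891, 1879 and 1843 bp of it in K27M-Tag against 2367, 2377 and 2303 bp in WT-Tag (log2 -0.33, SE 0.04, limma adjusted p = 0.0121), with no FLAG peak in any list.

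**Figure D5:**
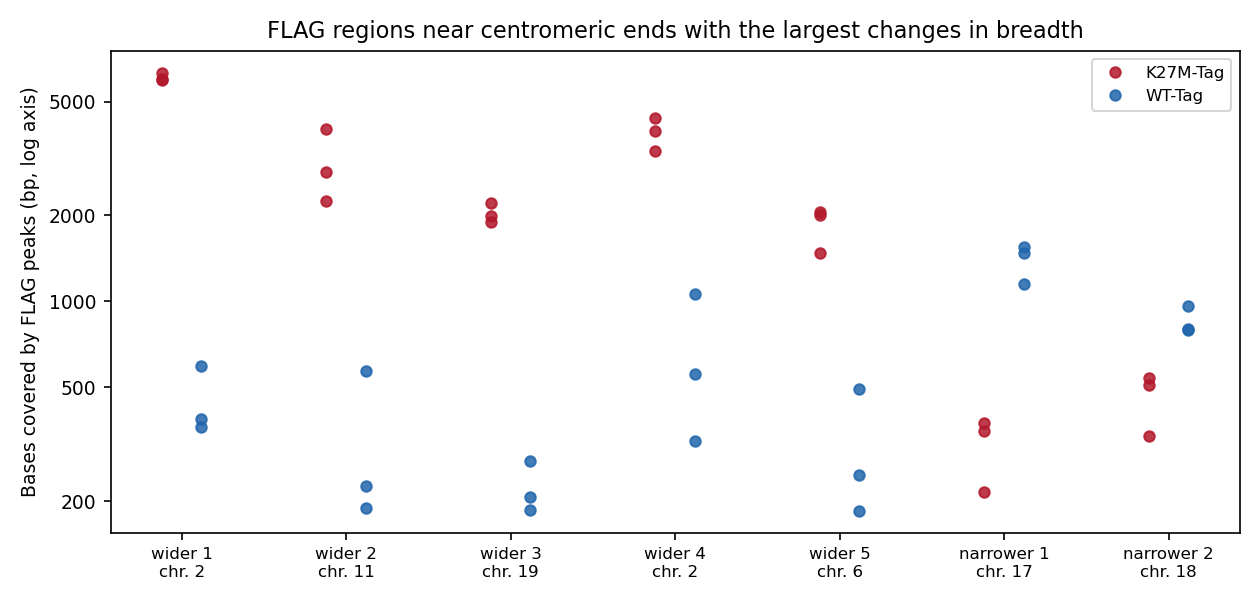
Bases covered by FLAG peaks in each culture on a log axis, at the window regions with the largest called changes, 5 wider and 2 narrower in K27M-Tag. In the first region the K27M-Tag cultures lie at 5930 to 6316 bp and the WT-Tag cultures at 365 to 592 bp, and the genotypes are apart in all 7 regions. The regions were chosen by these same values, so the separation follows largely from the choice.

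Of the 1082 H3K4me3 regions of the windows in all 6 lists, 85 became wider in K27M-Tag (background 7.56%) and 6 narrower (background 0.549%). The 91 calls were 8.41% of the window regions, against a background of 8.11%, and the median log2 difference was 0.13 in the windows and 0.14 over all regions. With each list centred on its median the calls were 19 wider (background 1.97%) and 16 narrower (background 1.13%). Without K27M-Tag replicate 1 there were 5 calls, without replicate 2 28, without replicate 3 11, and without WT-Tag replicate 3 38. The calls over all regions in these fits are not given here, so these numbers do not compare the windows with the background.

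The H3K4me3 region that widened most was chr6:5339995-5341871, with 1739, 1877 and 1675 bp in K27M-Tag against 538, 777 and 314 bp in WT-Tag (log2 1.79, SE 0.30, limma adjusted p = 0.0219), and it held no FLAG peak in any list. It was followed by chr4:8738261-8739700, chr19:6427456-6429117, chr12:8306197-8307045 and chr2:5651327-5652201, with log2 changes of 1.76, 1.70, 1.48 and 1.31. The last of these had an adjusted p of 0.0829 after centring (limma), and FLAG covered 875, 716 and 875 bp of it in K27M-Tag against 179 bp in WT-Tag replicate 1 alone.

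The other narrower H3K4me3 regions named by the rule were chr16:8833292-8834148, chr10:8475951-8478112, chr10:4795310-4797933 and chr2:4073504-4075851, with log2 changes of -1.54, -0.90, -0.61 and -0.31. At the region on chromosome 2, H3K4me3 peaks covered 1762, 1849 and 1886 bp in K27M-Tag against 2212, 2348 and 2260 bp in WT-Tag, while FLAG peaks covered 1777, 1788 and 2012 bp in K27M-Tag against 0, 300 and 346 bp in WT-Tag. At chr10:8475951-8478112, H3K4me3 covered 849, 941 and 1447 bp against 1828, 1956 and 2083 bp, and FLAG 1176, 1473 and 1321 bp against 382, 697 and 1074 bp. At both regions H3K4me3 was thus narrower and FLAG broader in K27M-Tag, without overlap of the genotypes. At chr10:4795310-4797933, FLAG covered 413, 349 and 715 bp in K27M-Tag against 223, 152 and 637 bp in WT-Tag, with overlapping ranges. Broader FLAG was common, as 43.1% of all FLAG regions tested were wider in K27M-Tag. The region on chromosome 16 had no FLAG peak in any list.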

How the data were processed

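Lists of 12 ChIP-seq libraries were used, 1 FLAG and 1 H3K4me3 list for each of 3 cultures of both genotypes. The peak rule, region lists and tests were chosen with earlier results of these data known. The authors deposited 1 list per library in the narrowPeak order with mm9 in the peak names. Its deposited columns are a score, a fold enrichment (a ratio to local background), a −log10 p and a −log10 q, all the authors' own, used here to rank peaks within a list or to recover local background. The submitters' processing notes name BWA 0.7.17-r1188, MACS2 2.2.7.1 and bedtools 2.29.2 without roles. The control and threshold are not given in the sources used here. The 2 composite input samples were not analysed here, and lists of a genotype may share one. The H3K4me3 lists carry no factor from the Drosophila spike-in chromatin that the labels' protocols describe.

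Peaks, covered bases, widths and overlaps were counted per list in Python 3.11.15 with numpy 2.4.6, pandas 2.3.3 and scipy 1.17.1. Windows and the rest were compared with exact sign-flip tests over 6 cultures, and genotypes with exact permutation tests of 3 against 3, all two-sided. Nothing in the labels says how far cultures of a genotype were independent, so p-values measure the spread between these samples. Breadth (log2 covered bases, no pseudocount) was fitted with limma 3.58.1 (trend) in R 4.3.3 over all regions in all 6 lists. On 11980 simulated FLAG regions, 100% of 200 planted log2 changes of 2 were recovered, with 8 false calls. The simulation used 1 SD for all regions and no shift between genotypes, so its false calls do not carry over to the real lists. It does not show how many changes near the window medians, log2 0.70 for FLAG and 0.13 for H3K4me3, would be recovered.

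Named regions were, per antibody, up to 3 in all 6 lists and up to 5 specific to a genotype by their lowest score percentile, and up to 5 wider and 5 narrower by size of change among calls. The text also names the 3 highest and 3 lowest chromosomes by observed over expected number. The alternatives tried were the top-scoring 50% of each list, lists of equal size, a limit of 5 Mb, windows from 4 Mb, a rest of 10 to 20 Mb, joining across 1000 bp, an overlap of 50% of the shorter peak, pooled densities, omission of chromosome 19 or of each list, centring and the replicate number as a block. Regions are given by mm9 position, because the gene tables at hand are of another build.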

Additional observations from a re-analysis of the deposited data

Results flagged for a closer look

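Relative to the rest of their chromosome, H3K4me3 peaks in 2 windows lay on opposite sides of 1 in the genotypes. On chromosome 7, observed over expected was 0.988, 0.986 and 0.975 in the K27M-Tag cultures but 1.11, 1.08 and 1.12 in the WT-Tag cultures, a difference of -0.122. On chromosome 11 the K27M-Tag cultures stood at 1.08, 1.10 and 1.07 and the WT-Tag cultures at 0.991, 0.973 and 0.981, a difference of 0.101. These differences were not tested, and both chromosomes were singled out from 19 after their values were seen. Genotype ranges apart were common with H3K4me3. Over the other 316 stretches of 7 Mb, K27M-Tag was higher without overlap in 19.3% and WT-Tag in 15.8%. How many of those stretches lay on opposite sides of 1 was not counted. In FLAG, K27M-Tag lay below WT-Tag on both chromosomes, at 0.633 ± 0.0396 against 0.712 ± 0.0263 on chromosome 7 and at 1.11 ± 0.0262 against 1.22 ± 0.0563 on chromosome 11 (SD, n = 3).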

How the results depend on the processing

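Over all results and alternatives other than leaving out a list, 113 values kept their direction and side of the threshold or stayed within 1.5 times, 19 reversed, 7 passed the exact p of 0.05 that had not, 1 no longer passed it and 22 counts moved by over 1.5 times. The exact tests of 3 cultures against 3 cannot go below p = 0.1. For them a kept value therefore means a kept sign alone. The cause was not tested, except where an alternative keeps fewer peaks or regions, as all those that moved counts by a score limit or by 5 Mb do. Values below are log2 differences, bp, percentage points or counts, in that order where they differ. Counts of breadth calls and of genotype-specific regions are for the windows alone. For FLAG breadth, calls over all regions were 5243 of 11980 beside 51 of 157 window regions below 5 Mb. They were 2542 of 5565 beside 105 of 255 with the top 50% of peaks. With the replicate number as a block they were 4670 of 11980 beside 188 of 571. Other window counts below stand without such a share unless it is given above.

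With equal list sizes, the member count of K27M-Tag against WT-Tag was -0.0936 for FLAG and -0.0131 for H3K4me3, FLAG width was 0.75 bp above the rest, H3K4me3 peaks with FLAG differed from the rest by -1.41 points, and K27M-Tag-only and WT-Tag-only regions numbered 146 and 85 for FLAG and 41 and 13 for H3K4me3. With the rest taken as 10 to 20 Mb, density was 0.56 for FLAG and 0.49 for H3K4me3, FLAG width 5.67 bp, H3K4me3 peaks with FLAG 2.52 points, and their genotype difference 0.713 points. Below 5 Mb, H3K4me3 density was 0.0380, H3K4me3 peaks with FLAG -6.46 points, breadth calls 51 and 31, and specific regions 134 and 17 for FLAG and 19 and 3 for H3K4me3.

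Without chromosome 19, the genotype ratio was 0.0248 for FLAG in number and 0.0179 in covered length, and 0.00769 and 0.000714 for H3K4me3. FLAG width was -4.67 bp, FLAG peaks on H3K4me3 -0.349 points with a genotype difference of -0.110, and H3K4me3 peaks with FLAG -3.95 points. With the top 50% of peaks, FLAG width was 3.08 bp, H3K4me3 width 10.6 bp, FLAG peaks on H3K4me3 1.74 points, breadth calls 105 and 41, and specific regions 253 and 16 for FLAG and 43 and 0 for H3K4me3. Peaks joined across 1000 bp gave a FLAG width of 5.08 bp, a genotype difference in FLAG peaks on H3K4me3 of -0.293 points, 297 FLAG regions of K27M-Tag only, 4 H3K4me3 regions of WT-Tag only and 45 H3K4me3 breadth calls. Windows from 4 Mb gave 0.278 points for FLAG peaks on H3K4me3 and a genotype difference of -0.190. For H3K4me3 peaks with FLAG, an overlap of 50% gave -1.39 points, windows from 4 Mb -0.157 (exact p = 0.719), the top 50% -0.588 and joined peaks -0.691, beside -1.23 as reported. Centring left 120 FLAG and 35 H3K4me3 breadth calls.

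Leaving out each list in turn, density was -0.26 to -0.24 for FLAG and -0.21 to -0.20 for H3K4me3, and H3K4me3 width 127 to 149.9 bp, with 5 cultures too few to pass 0.05. Breadth calls were 108 to 263 for FLAG and 5 to 113 for H3K4me3. K27M-Tag-only and WT-Tag-only regions were 537 to 901 and 37 to 123 for FLAG, and 84 to 120 and 8 to 13 for H3K4me3, all above the main counts because 5 lists must meet the rule in place of 6. The replicate number as a block gave 27 H3K4me3 and 188 FLAG breadth calls. Same-numbered lists of the genotypes did not deviate together (correlations from 0.00519 to 0.0126 for FLAG and from -0.00722 to 0.0321 for H3K4me3), and not every list correlated best with its own number. The labels call the number an experiment id and do not say what an experiment shared, so it was not taken as a pairing.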
